A study of Mus musculus with 2 samples.

Results

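Plasminogen activation was followed here through 8 genes, taken by symbol from the 24532 genes of the count table, and all 8 were also among the 14158 genes with TPM, a level scaled for gene length and library size. They are the plasminogen activators *Plau* (urokinase) and *Plat* (tissue-type activator), the urokinase receptor *Plaur*, the serpins *Serpine2*, *Serpinb2* and *Serpinf1*, and *Anxa2* and *S100a10*, whose proteins form a docking complex for plasminogen at the cell surface. The cells were cardiac myofibroblasts, the CD45-negative cells that attached to plastic after digestion of infarcted hearts of C57BL/6 mice 3 days after myocardial infarction (MI). Both groups were transfected with siRNA at 12.5 nM and harvested 72 h later. In siCtrl the siRNA was a control, and in si*Vgll3* it was directed at the transcription cofactor gene *Vgll3*. Each group is 1 library, so there is no spread between replicates and no test of the conditions, and a difference described here is a difference between 2 libraries.

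Plasminogen is a circulating zymogen that urokinase and tissue-type activator cut to plasmin, a protease that dissolves fibrin, degrades matrix glycoproteins and activates other zymogens such as matrix metalloproteinases. The urokinase receptor holds the enzyme at the cell surface, serpins trap the activators, and the annexin A2 and S100A10 complex binds plasminogen and tissue-type activator. In the infarcted mouse heart this system takes part in clearing dead muscle and in forming the scar, and fibroblasts are among its known sources.

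The siCtrl library held 140815237 reads counted on genes and the si*Vgll3* library 125789276. *Vgll3* itself was at 202 TPM in siCtrl against 84.0 TPM in si*Vgll3*, which is 41.6% of the siCtrl level. Fibroblast and myofibroblast markers were abundant in both libraries, with *Vim* at 5343 and 6541 TPM, *Col1a2* at 4585 and 3179 TPM and *Col1a1* at 4918 and 2631 TPM. Of 11 leukocyte markers, 6 had no read in either library, among them *Ptprc*, which encodes CD45, and the list summed to 15.0 TPM in siCtrl against 8.46 TPM in si*Vgll3*. Its most abundant genes were *Lyz2* at 10.9 and 3.13 TPM, *Cd14* at 1.53 and 2.35 TPM and *Csf1r* at 1.29 and 1.83 TPM. Endothelial markers (6 genes, led by *Tek*, *Emcn* and *Cdh5*) summed to 26.7 and 22.3 TPM, and mural cell markers (5 genes, led by *Cspg4*, *Rgs5* and *Myh11*) to 2.11 and 1.54 TPM. Of 6 cardiomyocyte markers, 4 had no read in either library, *Tnni3* had 0 and 10 reads, and *Tnnt2* was at 60.0 TPM in siCtrl against 10.4 TPM in si*Vgll3*. Mesothelial markers did not move together, since *Upk3b* was at 31.6 and 9.89 TPM and *Lrrn4* at 12.4 and 3.90 TPM, while *Krt19* was at 2.86 and 16.8 TPM, and the 5 genes summed to 56.1 and 41.3 TPM. The part of these marker genes in the results below was not tested. In bulk RNA, fewer cells of a type and less RNA per cell cannot be told apart.

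*Anxa2* was the most abundant of the 8 genes in both libraries, and the urokinase gene and that of its receptor were among the least. In siCtrl the order by TPM was *Anxa2*, *Serpinf1*, *S100a10*, *Serpine2*, *Plat*, *Plaur*, *Plau* and *Serpinb2*. In si*Vgll3* it was the same except that *S100a10* stood above *Serpinf1*. Without replicates it cannot be said which neighbours in this order differ beyond the spread between cultures. Together the 8 genes made up 0.509% of all TPM in siCtrl and 0.563% in si*Vgll3*. The plot of levels shows that *Plaur*, *S100a10* and *Serpinf1* moved farthest among the genes above 1 TPM.

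**Figure D1:**
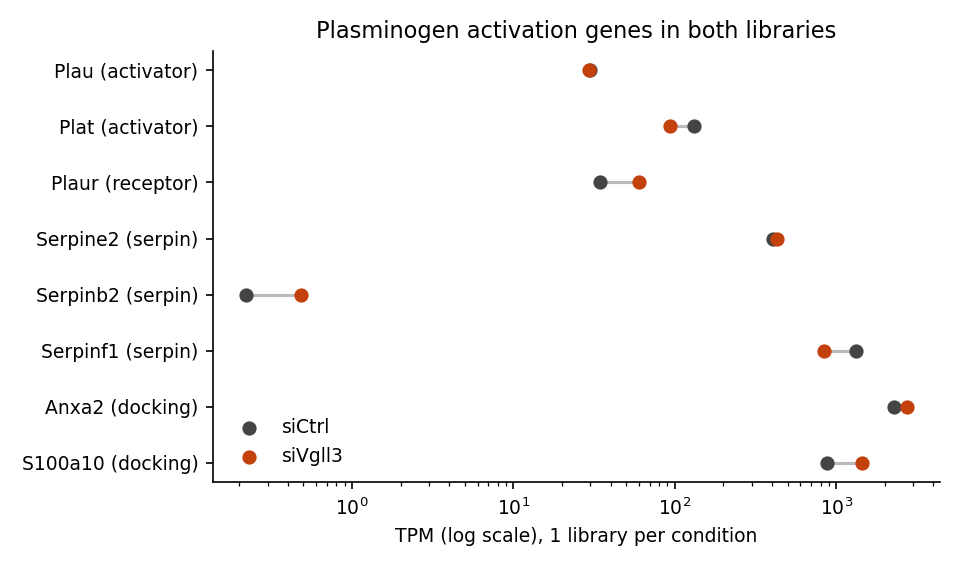
TPM of each gene (horizontal log axis) in the siCtrl library (grey points) and the si*Vgll3* library (orange points). The points of *Plau* coincide at 29.6 and 29.3 TPM, while *Plaur* lies at 34.6 and 59.8 TPM and *Serpinf1* at 1321 and 840.0 TPM.

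To compare the libraries, M was taken as the log2 ratio of the TPM in si*Vgll3* to that in siCtrl with A, the log2 value of their mean TPM, as the measure of level, and a gene with A > 0 was counted as higher at M above 0.5 and as lower at M below −0.5. The lower limit and the filter on A are those the study gives for its MA plot, and the upper limit mirrors the lower one. Square brackets give the 95% Clopper-Pearson interval of the read ratio, shifted onto the TPM ratio. It covers counting error only, and it treats reads as independent molecules, which sequenced reads are not. Of the 8 genes, 7 had A > 0 and *Serpinb2* did not. Among these 7 genes, 2 were higher, *Plaur* and *S100a10* (28.6%, against 5.73% of the 11754 genes compared), and 1 was lower, *Serpinf1* (14.3%, against 11.4% of the genes compared, so near that background). The other 4 lay between the limits, and the median M of the 7 genes was 0.08, beside −0.05 over all genes compared.

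*Plaur* (NCBI gene 18793) lies on the forward strand of chromosome 7 of mm10 from 24462484 to 24475968, and its coding transcript has 7 exons. It encodes the glycolipid-anchored receptor that concentrates urokinase at the cell surface. *Plaur* had 3330 reads in siCtrl and 5332 reads in si*Vgll3*, or 34.6 and 59.8 TPM. The higher library was si*Vgll3*, at 1.73 times the siCtrl level, an M of 0.79 [0.73, 0.85]. Of all genes compared, 97.3% had a lower M.

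The sequence around the start of *Plaur* is shown because only this member counted as higher has an entry in the RefSeq promoter table. That of *Serpinf1* is shown as the member that was lower. Those of *Anxa2*, which lay between the limits, and of *Serpinb2*, which had A below 0, are shown beside them. Both have M above 0.2, a value that is not a limit used elsewhere. It leaves out *Serpine2*, which has an M of 0.08 and is not shown. The table matched 5 of the 8 genes, the other one being *Serpine2*, while *Plau*, *Plat* and *S100a10* were not matched. Each entry runs from 250 bases before to 50 bases after the start, on the gene's strand, in assembly GRCm38.p6 (the build also called mm10). Letters searched were TGANTCA, the palindromic site of AP-1 factors, and GGAATG, the site of TEAD factors, which are the DNA-binding partners of VGLL proteins, both read on either strand, and TGANTCA and GGAATG share no stretch in these windows since the latter was absent. Capitals mark the AP-1 letters.

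*Plaur*, chr7:24462233-24462532, forward strand: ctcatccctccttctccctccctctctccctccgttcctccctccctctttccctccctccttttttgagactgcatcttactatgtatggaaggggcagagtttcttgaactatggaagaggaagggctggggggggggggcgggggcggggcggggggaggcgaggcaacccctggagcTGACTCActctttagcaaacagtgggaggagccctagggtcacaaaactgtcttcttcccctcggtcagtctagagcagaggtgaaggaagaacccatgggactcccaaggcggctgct
*Anxa2*, chr9:69453433-69453732, forward strand: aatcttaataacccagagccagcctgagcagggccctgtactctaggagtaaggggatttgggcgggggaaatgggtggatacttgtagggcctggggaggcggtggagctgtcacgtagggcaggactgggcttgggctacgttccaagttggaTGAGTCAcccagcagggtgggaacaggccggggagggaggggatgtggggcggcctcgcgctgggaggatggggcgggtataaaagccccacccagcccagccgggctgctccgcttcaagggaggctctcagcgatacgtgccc
*Serpinb2*, chr1:107511173-107511472, forward strand: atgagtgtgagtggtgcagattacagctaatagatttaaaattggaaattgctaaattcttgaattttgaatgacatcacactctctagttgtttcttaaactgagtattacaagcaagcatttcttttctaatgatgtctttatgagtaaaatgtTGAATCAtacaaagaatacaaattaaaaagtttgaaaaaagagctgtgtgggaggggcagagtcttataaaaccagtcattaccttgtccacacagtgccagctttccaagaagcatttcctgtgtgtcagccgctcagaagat
*Serpinf1*, chr11:75422574-75422873, reverse strand: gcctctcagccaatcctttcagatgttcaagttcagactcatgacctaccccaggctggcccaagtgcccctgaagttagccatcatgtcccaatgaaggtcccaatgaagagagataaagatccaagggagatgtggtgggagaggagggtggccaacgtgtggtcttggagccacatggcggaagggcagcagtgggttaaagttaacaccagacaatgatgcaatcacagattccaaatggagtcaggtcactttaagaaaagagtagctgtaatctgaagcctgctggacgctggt

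The AP-1 letters were in the windows of 3 of the 5 matched genes. They read TGACTCA from 69 bases before the start of *Plaur*, TGAGTCA from 95 bases before that of *Anxa2* and TGAATCA from 94 bases before that of *Serpinb2*, whose further table entry starts 87 bases downstream and holds the same site. In the windows of *Serpine2* and *Serpinf1* these letters were absent. Of the genes that held them only *Plaur* was counted as higher, and a relation of these letters to M was not tested. Over all 32851 promoter entries, 7.81% held TGANTCA, and of the 8998 genes with A > 0 and an entry, 6.08% did. The TEAD letters were in none of the 5 genes' windows, in 14.7% of all entries and in 14.3% of those 8998 genes. A match is a description of the sequence and not a binding site, and no match says only that these letters are not in this window.

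The activators did not change alike. *Plau* (NCBI gene 18792, chromosome 14 from 20836660 to 20843385, forward strand) had 4426 reads in siCtrl and 4055 reads in si*Vgll3*, or 29.6 and 29.3 TPM. Its libraries were level within counting error, with an M of −0.01 [−0.08, 0.05] that became 0.04 when read shares without length scaling (CPM) replaced TPM. *Plat* (NCBI gene 18791, chromosome 8 from 22757727 to 22782844, forward strand) had 21401 reads in siCtrl and 14173 reads in si*Vgll3*, or 131 and 93.9 TPM. The si*Vgll3* library thus held 71.6% of the siCtrl level, an M of −0.48 [−0.51, −0.45], which is not below −0.5, so *Plat* is not counted as lower, although its interval crosses that limit. *Plat* was the more abundant activator in both libraries, at 4.44 times the TPM of *Plau* in siCtrl and 3.21 times in si*Vgll3*.

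Of the serpins, *Serpinf1* (NCBI gene 20317, chromosome 11 from 75409769 to 75422701, reverse strand) encodes pigment epithelium-derived factor, a secreted serpin without protease-inhibiting activity that binds collagen and restrains vessel growth. *Serpinf1* had 126030 reads in siCtrl and 74147 reads in si*Vgll3*, or 1321 and 840.0 TPM. It was the gene of the 8 with the lowest M, −0.65 [−0.67, −0.64], and 63.6% of the siCtrl level was left. In TPM it was the 127th gene of the siCtrl library and the 183rd of the si*Vgll3* library. Its neighbour *Serpinf2*, the gene of the main plasmin inhibitor of plasma, lies 9030 bases away on the same strand and had 7 reads in siCtrl and 10 reads in si*Vgll3*.

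*Serpine2* (NCBI gene 20720, chromosome 1 from 79794197 to 79861180, reverse strand) encodes protease nexin-1, an inhibitor of thrombin and of both activators. It had 53521 and 52206 reads, or 408 TPM in siCtrl against 430.0 TPM in si*Vgll3*. The libraries differed by little, with an M of 0.08 [0.06, 0.09]. *Serpinb2* (NCBI gene 18788, chromosome 1 from 107511423 to 107535478, forward strand) encodes plasminogen activator inhibitor 2, which many cells hold inside the cell. It had only 29 reads in siCtrl and 57 reads in si*Vgll3*, or 0.220 and 0.483 TPM, and its annotated interval also holds *Serpinb10*. Its M was 1.13 with a wide interval of 0.46 to 1.83, and with 1 TPM added to both libraries it was 0.28, so little can be said of it at this level.

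Of the docking genes, *Anxa2* (NCBI gene 12306, chromosome 9 from 69453620 to 69491795, forward strand) encodes the membrane-binding annexin of the complex. It had 199998 reads in siCtrl and 221708 reads in si*Vgll3*, or 2279.9 and 2731 TPM, an M of 0.26 [0.25, 0.27]. Its interval also holds *Mir3109* and the antisense gene *Gm16144*. *S100a10* (NCBI gene 20194, chromosome 3 from 93555080 to 93564643, forward strand) encodes p11, the partner whose C-terminal lysines bind plasminogen and which annexin A2 protects from degradation. It had 36602 reads in siCtrl and 55059 reads in si*Vgll3*, or 882 and 1434 TPM. Here the si*Vgll3* library was higher at 1.63 times the siCtrl level, an M of 0.70 [0.68, 0.72]. *S100a10* thus passed the upper limit, while *Anxa2*, at a positive M, lay between the limits.

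**Figure D2:**
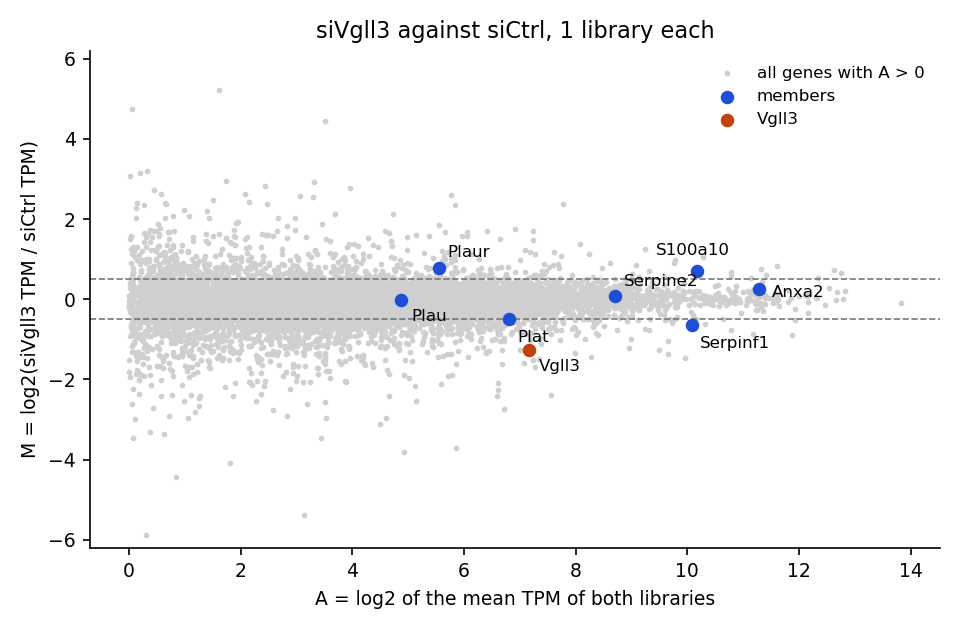
M (vertical axis, log2 ratio of si*Vgll3* to siCtrl TPM) against A (horizontal axis, log2 mean TPM) for the 11754 genes with A > 0 (grey), with the 7 members that reached A > 0 in blue and *Vgll3* in orange, and dashed lines at 0.5 and −0.5. *Plaur* and *S100a10* lie above the upper line, *Serpinf1* lies below the lower line and *Plat*, at an M of −0.48, lies just above the lower line.

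Pathway genes outside the 8 were taken from lists of plasma regulators, receptors and clearance genes, and substrates, with 34 genes reported, of which 19 had A > 0. Of these 19 genes, 4 were lower and 0 were higher, beside 11.4% and 5.73% of all genes compared, with a median M of −0.19. In 13 of them M was below 0, beside 6700 of the 11754 genes compared.

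Among the plasma regulators, *Serping1*, which encodes the C1 inhibitor that also inhibits kallikrein and factor XII, was at 227 TPM in siCtrl against 104 TPM in si*Vgll3*. Its M of −1.12 [−1.15, −1.09] was the lowest of these pathway genes. *Serpini1*, the gene of neuroserpin, an inhibitor of tissue-type activator known from the nervous system, was at 21.1 and 15.9 TPM, an M of −0.40 that lies between the limits. *Plg*, the gene of plasminogen itself, had 0 reads in either library, where up to 3 reads could go unseen by counting error alone. In total 6 of these 12 regulators had no read in either library.

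Of 8 receptor and clearance genes with A > 0, 2 were lower (against 11.4% of all genes compared) and 0 were higher (against 5.73%). *Mrc2*, which encodes the collagen-uptake receptor that associates with the urokinase receptor, was at 193 and 129 TPM, an M of −0.58 [−0.60, −0.56]. *Vldlr*, a clearance receptor for complexes of activators and serpins, was at 8.72 and 4.94 TPM, an M of −0.82 [−0.89, −0.75]. The related receptor *Lrp1* was at 204 and 151 TPM, an M of −0.43 [−0.44, −0.42], between the limits. *Eno1*, a glycolytic enzyme that also binds plasminogen at the cell surface, was the most abundant gene of this list, at 2378 and 2632 TPM and an M of 0.15. In 7 of the 8 genes M was below 0, beside 6700 of the 11754 genes compared.

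Of 8 substrate genes with A > 0, 1 was lower (12.5%, near the 11.4% of all genes compared) and 0 were higher (against 5.73%). This was *Mmp14*, the membrane-bound metalloproteinase that degrades collagen, at 443 TPM in siCtrl against 281 TPM in si*Vgll3*, an M of −0.66 [−0.67, −0.64]. *Fn1*, the gene of fibronectin, was at 4977 and 5115 TPM, an M of 0.04. *Bdnf*, whose precursor plasmin can cleave, was at 23.7 and 33.0 TPM and is named because its M of 0.48 [0.43, 0.53] crossed 0.5 under some scalings of the counts.

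**Figure D3:**
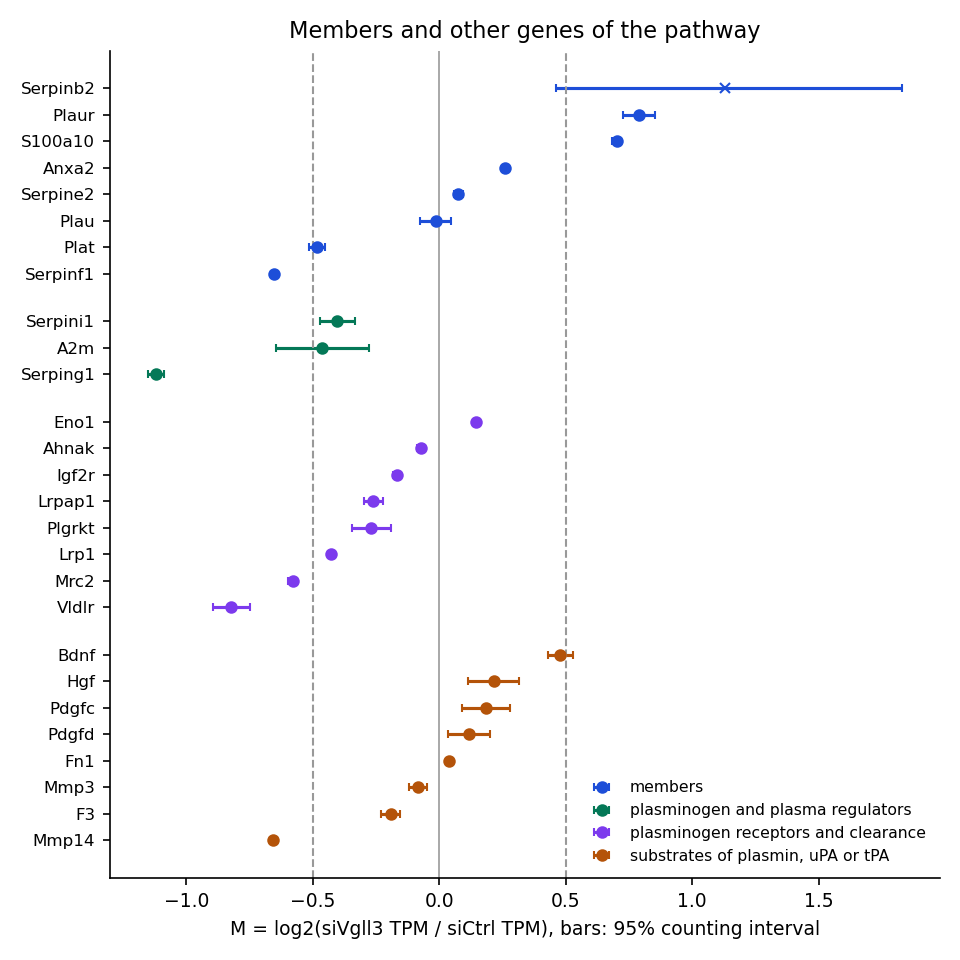
M (horizontal axis) of the 8 members and of 19 pathway genes with A > 0, by list and in order of M, with bars for the 95% counting interval, dashed lines at 0.5 and −0.5, and a cross for *Serpinb2*, which had A below 0. *Plaur* and *S100a10* lie to the right of the upper line by more than their intervals, and *Serpinf1*, *Serping1*, *Mrc2*, *Vldlr* and *Mmp14* to the left of the lower line.

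Ratios of TPM within a library show how partners stood to each other, and the interval of their log2 change is Woolf's, from the read counts. *Plat* stood at 0.322 of *Serpine2* in siCtrl and 0.218 in si*Vgll3*, a change of −0.56 [−0.59, −0.52]. Both activators together were at 161 TPM in siCtrl against 123 TPM in si*Vgll3*, which is 76.6% of the siCtrl sum. These are ratios of mRNA, and neither protein nor enzyme activity was measured in these libraries.

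Enzyme and receptor also came apart. *Plau* stood at 0.855 of *Plaur* in siCtrl and 0.489 in si*Vgll3*, a change of −0.81 [−0.89, −0.72]. The ratio of *Plau* to *Plat* went from 0.225 to 0.312, a change of 0.47 [0.40, 0.54]. The sign of such a change depends on which gene of the pair is set first. In the docking complex, *Anxa2* transcripts numbered 2.58 for each *S100a10* transcript in siCtrl and 1.90 in si*Vgll3*, a change of −0.44 [−0.46, −0.42].

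**Figure D4:**
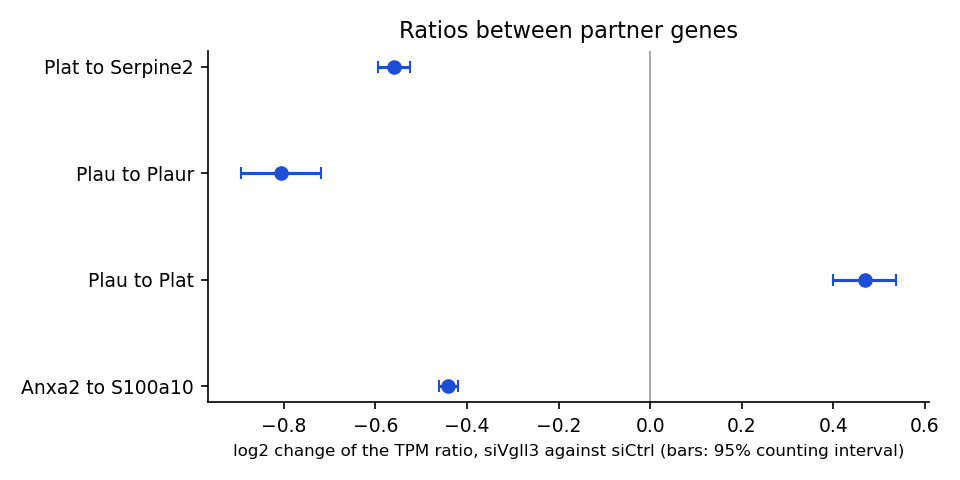
Log2 change between siCtrl and si*Vgll3* (horizontal axis) of the TPM ratio of 4 pairs of partner genes, with bars for the 95% counting interval and a line at 0. The ratio of *Plau* to *Plaur* is farthest from 0 at −0.81, and the side of 0 depends on which gene of a pair is set first.

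Set among their gene families, the members with A > 0 did not stand at the ends. Of 63 serpin genes reported, 17 had A > 0, and of these 6 were lower (35.3%, against 11.4% of all genes compared) and 2 were higher (11.8%, against 5.73%), with a median M of −0.06. The higher ones were the intracellular serpins *Serpinb9b* (70.7 and 366 TPM, M of 2.37) and *Serpinb6b* (55.2 and 186 TPM, M of 1.75). The lower ones were *Serpinf1*, *Serping1*, *Serpina3g* (10.8 and 2.84 TPM, M of −1.93), *Serpina3f* (2.69 and 1.16 TPM, M of −1.21), *Serpinb8* (2.57 and 1.61 TPM, M of −0.67) and *Serpina3n* (122 and 80.8 TPM, M of −0.59). *Serpinh1*, the collagen chaperone HSP47, was the most abundant of these 17 genes and was at 2219 and 2987 TPM, an M of 0.43. The Serpina3, Serpinb6 and Serpinb9 genes are clusters of closely similar copies, so the division of reads among them is uncertain.

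Of 9 annexins with A > 0, 1 was higher and 0 were lower, beside 5.73% and 11.4% of all genes compared, with a median M of 0.18 close to the 0.26 of *Anxa2*. The gene that was higher was *Anxa8* (4.80 and 21.1 TPM, M of 2.14), whose interval on the genome overlaps *A630023A22Rik*. *Anxa1*, the next most abundant after *Anxa2*, was at 1033 and 1169 TPM, an M of 0.18.

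Of 9 S100 genes with A > 0, 4 were higher (44.4%, against 5.73% of all genes compared) and 0 were lower (against 11.4%), with a median M of 0.15. Beside *S100a10* these were *S100a6* (1892 and 3193 TPM, M of 0.76), *S100a4* (4231 and 6096 TPM, M of 0.53) and *S100a3* (2.20 and 6.21 TPM, M between 1.16 and 1.84 by counting error). All 4 lie on chromosome 3, but so do *S100a1*, *S100a11*, *S100a13* and *S100a16*, which lay between the limits. *S100a3* and *S100a4* overlap the predicted gene *Gm42674*. The nearest S100 neighbour of *S100a10*, *S100a11*, ends 28792 bases before it on the same strand. *S100a11* was at 4706 TPM in siCtrl against 4498 TPM in si*Vgll3*, an M of −0.07, so these adjacent genes differed in M by more than their counting intervals.

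**Figure D5:**
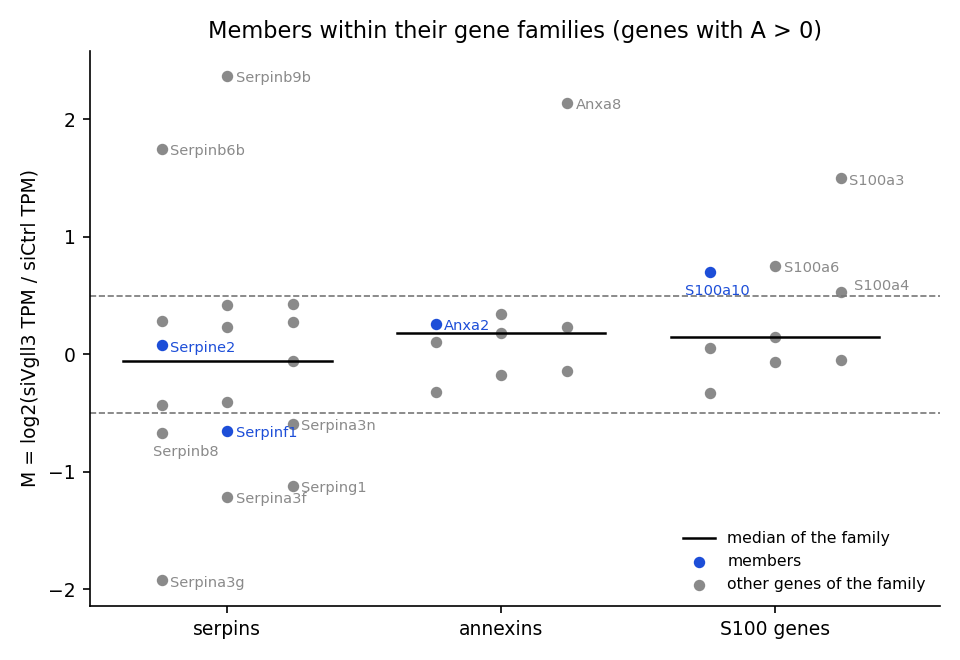
M (vertical axis) of the serpins, annexins and S100 genes with A > 0, with members in blue, other genes of each family in grey, a black bar at the family median and dashed lines at 0.5 and −0.5. Members and genes beyond the dashed lines carry their names, and *Serpinb9b* at 2.37 and *Anxa8* at 2.14 are higher than any member.

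By distance in log2 TPM over the 2 libraries, the genes most like *Plaur* were *Asb5* (33.4 and 60.0 TPM, distance 0.05) and *Phlda1* (35.0 and 55.4 TPM, distance 0.11). The genes nearest to *S100a10* were *Plac8* (802 and 1674 TPM, distance 0.26) and *Nme2* (1064 and 1226 TPM, distance 0.35). Those nearest to *Serpinf1* were *Txndc5* (1335 and 947 TPM, distance 0.17) and *Hsp90b1* (1238 and 949 TPM, distance 0.20). With only 2 libraries this measure compares a level and a ratio and no pattern over conditions.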

How the data were processed

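Polyadenylated RNA of 1 siCtrl and 1 si*Vgll3* culture was sequenced, with the groups read from the treatment labels. The authors removed adapters, bases of low quality and short reads with Trimmomatic, aligned the rest to mm10 by HISAT2 and ran StringTie, whose versions and annotation release are not given in the sources used here. They deposited raw counts of reads per gene, not normalized, and TPM, which the authors had scaled for length and library size. The strand setting of the counting is not stated.

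From these files M, A, intervals and ratios were computed in Python 3.11.15 with scipy 1.17.1. TMM factors (edgeR 4.0.16) and size factors (DESeq2 1.42.0) in R 4.3.3 served as scaling alternatives only, and no model was fitted. Positions and overlaps came from GENCODE vM21 (GRCm38), with exons of the transcript of longest coding sequence, and promoters from RefSeq GRCm38.p6.

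The members and gene lists were chosen with earlier results of these data known. Named were all members, *Vgll3*, in each pathway or family list up to 8 genes past the limits and the 2 most abundant, the 3 most abundant markers of each list, and the 2 nearest genes of 3 members. *Plg*, *Bdnf*, *Ptprc*, *Tnni3*, *Serpinf2*, *Mmp13* and *S100a14* were named after their values were seen. An item of the gene lists, with the ratios that need it, is not reported here.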

Additional observations from a re-analysis of the deposited data

How the results depend on the processing

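No paired analysis was possible because siCtrl and si*Vgll3* are single libraries, and for the same reason no replicate could be left out. The 11 alternatives replaced TPM by CPM, TMM scaling or DESeq2's size factors, added 1 or 0.1 TPM, used M centred on its median, changed the filter in 3 ways, set a limit of 1 on M, or asked for the whole counting interval beyond 0.5. The members counted as higher and lower stayed *Plaur*, *S100a10* and *Serpinf1* under the 3 scalings, both added values and the centring. Without a filter on A, and with at least 10 reads in each library in its place, *Serpinb2* made 3 higher. With a limit of 1 on M, 0 members were higher, 0 members were lower and 1 pathway gene was lower. Pathway genes counted as higher went from 0 to 1 with CPM, 1 with TMM scaling, 1 with DESeq2's size factors and 1 with centred M, each time *Bdnf*, and the cause was not tested. The median M of all genes compared lay between −0.05 and 0.01 in these settings. Over TPM and the 6 alternatives of scaling, added value and centring, M ranged from 0.77 to 0.84 for *Plaur*, from 0.70 to 0.75 for *S100a10*, from −0.65 to −0.60 for *Serpinf1*, from −0.48 to −0.43 for *Plat*, from 0.26 to 0.31 for *Anxa2*, from 0.08 to 0.13 for *Serpine2*, from −0.01 to 0.04 for *Plau* and from 0.28 to 1.18 for *Serpinb2*. Counting depth limits *Serpinb2*, whose reads number 86 in all. For *Plat* the interval with TPM, −0.51 to −0.45, crosses −0.5, while its M of −0.43 with CPM lies outside that interval.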

Other observations

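miR-29b is a microRNA known to target collagen transcripts. The members' 3′ UTRs were searched for its seed match, a search added after the values were seen. The mature sequence is shown to mark that seed in capitals (bases 2 to 8).

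mmu-miR-29b-3p: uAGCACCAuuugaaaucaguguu

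None of the 8 members held the matching letters TGGTGCT in the 3′ UTR of the transcript with the longest coding sequence, whose length ran from 239 bases in *S100a10* to 935 bases in *Plau*. Of 10925 genes with A > 0 and a 3′ UTR, 14.3% held them. This share is not matched for 3′ UTR length, and 8 genes are too few to show a difference from it. MicroRNA levels were not measured by these libraries, and other transcripts of the members were not searched.

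A few genes of the lists had reads in 1 library alone and no TPM. *Mmp13*, a collagenase whose proenzyme plasmin can activate, had 30 reads in siCtrl and 0 reads in si*Vgll3*. That is 8.93-fold lower per counted read with si*Vgll3* set at a floor of 3 reads. The 30 reads were taken as exact, so this value is not a lower bound. *S100a14* had 0 reads in siCtrl and 32 reads in si*Vgll3*, 11.9-fold higher by the same floor and with the same limit.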
